A study of Mus musculus with 8 samples.

Results

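The 10 genes Ddx58, Ifih1, Dhx58, Mavs, Tmem173, Zbp1, Eif2ak2, Adar, Trex1 and Samhd1 sense nucleic acids in the cytosol or restrain that sensing. They were chosen by gene symbol for their function. Their measured values were not part of the rule, although earlier results of these data were known when the list was made. Ddx58 is named Rigi and Tmem173 is named Sting1 in newer annotations. All 10 were found among the 55385 genes of the count table, and all 10 passed the filter on low counts that left 17537 genes for testing. The study asked how immunoglobulin G (IgG) changes gene expression in primary mouse microglia, the resident macrophages of the brain. Cells from the neocortex and hippocampus of newborn wild-type mice, pooled over several brains, were grown in mixed culture, and the microglia were shaken off and replated in medium with heat-inactivated fetal bovine serum. The IgG group received 10 µg/ml IgG for 24 h at day 15 in vitro. The control group was labelled untreated, and the methods of the study give the phosphate-buffered saline vehicle as its treatment. Each group held 4 cultures (n = 4), and each IgG sample carried the same date in its label as the control of the same number. The labels do not say which step was done on that date. These are cultured, serum-exposed cells from newborn animals, which limits them as a model of microglia in the brain.

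RIG-I (Ddx58) and MDA5 (Ifih1) are helicases that bind double-stranded RNA in the cytosol and signal through MAVS on mitochondria, while LGP2 (Dhx58) lacks the signalling domains and tunes both. STING (Tmem173) relays cyclic dinucleotides made by the DNA sensor cGAS, ZBP1 binds left-handed nucleic acid and can start cell death, and PKR (Eif2ak2) halts translation when it binds double-stranded RNA. ADAR1 (Adar) edits the cell's own double-stranded RNA, TREX1 degrades cytosolic DNA and SAMHD1 breaks down deoxynucleotides, so that loss of any of these 3 causes an interferon-driven disease in humans. Most of these genes are themselves targets of type I interferon, in microglia as in other cells.

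The libraries held 21287816 to 23703216 counts assigned to genes, so that a count of 3 corresponded to 0.124 to 0.147 CPM, the counts of a gene scaled to a common library size. The mitochondrial share of counts was 4.85% in IgG library 1 and 5.59% in IgG library 3, and 1.97 to 2.41% in the other 6. All 10 microglial markers were detected, with a summed level of 6910 to 7580 CPM in controls and 7650 to 8170 CPM with IgG, although P2ry12 (6.98 CPM in controls) and Tmem119 (5.09 CPM) were low. Markers of the oligodendrocyte lineage summed to 1010 to 1570 CPM in controls and 847 to 1480 CPM with IgG. Astrocyte markers summed to at most 110 CPM and neuronal, fibroblast and endothelial markers to at most 21.8 CPM in any library, with the endothelial marker Cldn5 at 0 in all. The part of other cells in the results below was not tested. In these bulk libraries, fewer cells of a type and less RNA per cell cannot be told apart.

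Interferon acts on its targets through a short promoter element, the interferon-stimulated response element (ISRE), and stretches that match it are shown because most of the 10 genes are known as interferon targets. RefSeq promoter windows on GRCm38.p6, from 250 bases before to 50 bases after a start site, were found for 7 of the 10 genes (10 windows), all but Dhx58, Tmem173 and Zbp1. The letters GAAANNGAAA were searched on both strands. A match was found in 3 of the 10 windows of these genes, each in another gene, against 1131 of all 32851 windows (3.44%). The matches are printed on the strand of the gene, 5′ to 3′, with the matched letters in capitals and up to 10 neighbouring bases on each side:
Ddx58: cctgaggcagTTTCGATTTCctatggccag
Ifih1: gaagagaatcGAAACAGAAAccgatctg
Eif2ak2: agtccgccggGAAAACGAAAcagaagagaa
The Ddx58 match, at chr4:40239814-40239823, runs in reverse orientation and covers bases 3 to 12 of the transcript. The Ifih1 match (chr2:62646214-62646223) covers transcript bases 33 to 42, and the Eif2ak2 match (chr17:78882545-78882554) covers transcript bases 19 to 28. All 3 genes are transcribed from the minus strand. The windows of Mavs, Adar, Trex1 and Samhd1 held no such letters. The gamma-activated sequence TTCNNNGAA, which reads the same on both strands, matched in 3 of the 10 windows (of Eif2ak2, Adar and Samhd1), against 8.3% of all windows. A match is a description of the letters and not evidence of binding.

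The level of every one of the 10 genes was higher in the IgG library than in the control library of the same date in all 4 pairs. Over all genes tested, 1831 (10.4%) were higher in all 4 pairs. In the fit paired by date, 2 of the 10 genes passed an adjusted p of 0.05 with the quasi-likelihood test of edgeR, namely Zbp1 and Dhx58, and 0.393% of all genes were called higher. The study's own criterion, an unadjusted p under 0.01 with a log2 fold change beyond 0.5, was met by 5 of the 10 genes (Zbp1, Ddx58, Ifih1, Dhx58 and Trex1) and by 1.48% of all genes in the same direction. An unadjusted p under 0.05 was reached by all members but Mavs (9 of 10), against a background of 6.35%. The median fitted log2 fold change was 0.50 over the 10 genes and -0.01 over all genes. Within pairs 1, 2, 3 and 4 the median log2 change of the 10 genes was 0.49, 0.43, 0.59 and 0.28. In none of the 10 genes did every IgG library lie above every control library, a separation seen in 2.6% of all genes.

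**Figure D1:**
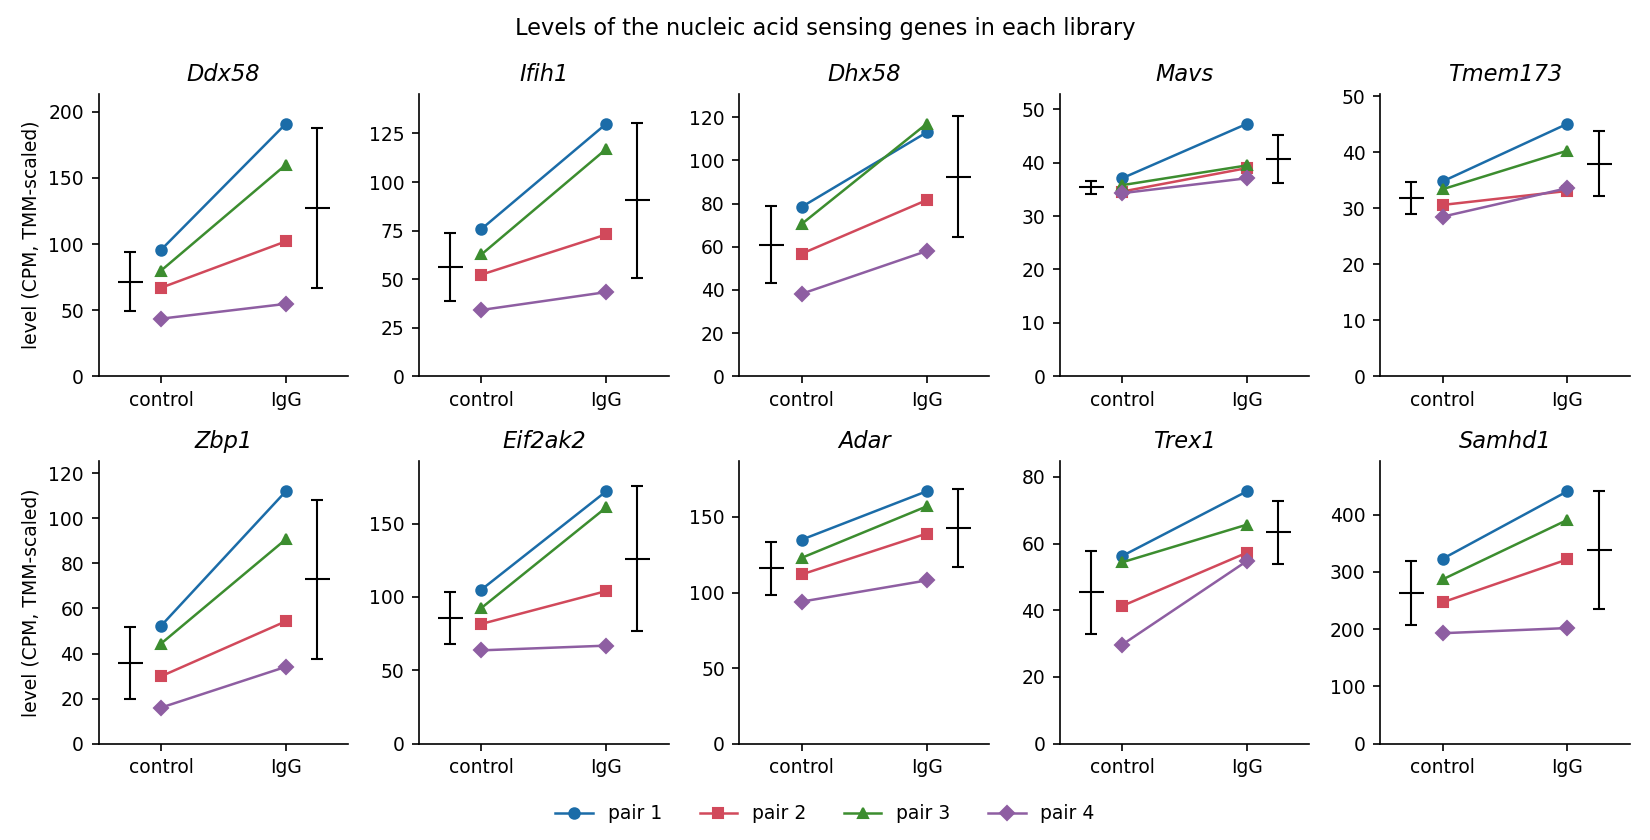
Level of each gene in CPM scaled by the trimmed mean of M-values (TMM), in the control and the IgG library of each labelled date; lines join the libraries of a pair, and black bars give the mean ± SD of the 4 libraries of a group. Each line rises from control to IgG, and in every control group pair 1 is highest and pair 4 lowest.

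The calls depended on the pairing. Without the replicate block, none of the 10 genes passed an adjusted p of 0.05, as no gene did in that fit, and none met the study criterion, which 0.582% of all genes met upward. In that fit 4 of the 10 genes (Zbp1, Trex1, Dhx58 and Ddx58) had an unadjusted p under 0.05, against 4.83% of all genes. Single pairs also mattered to the count of 2. It was 0 without pair 2, an edgeR fit in which no gene at all passed (0.0%) and 1615 genes had an unadjusted p under 0.05. It was 1 (Zbp1) without pair 1 and without pair 3, when 0.0794% and 0.0908% of all genes were called higher. It was 5 without pair 4, when Ddx58, Ifih1 and Eif2ak2 passed as well and 0.974% of all genes were called higher. With pairs 2 and 4 only, which leaves out the IgG libraries of high mitochondrial share, the count was 3 (Dhx58, Zbp1 and Trex1) against 0.867% of all genes, and the median log2 fold change of the 10 genes was 0.34. The same 3 met the study criterion with those pairs (1.17% of all genes), and Ddx58, Ifih1 and Zbp1 met it with total-count scaling (0.981%). When a pair was left out, 5, 4, 5 and 5 of the 10 genes met it without pairs 1, 2, 3 and 4, against 1.08%, 1.4%, 1.1% and 2.43% of all genes. Scaled by total counts alone, with which the median of all genes moved to -0.11, 7 of the 10 genes were higher in all 4 pairs (5.62% of all genes), and Mavs, Eif2ak2 and Samhd1 were higher in 3.

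Among the RNA sensors, Ddx58 (ENSMUSG00000040296, chromosome 4, 40203773 to 40239828, GRCm38) had 95.6, 66.9, 79.9 and 43.5 CPM in control libraries 1 to 4 and 191, 102, 160 and 54.7 CPM in IgG libraries 1 to 4. The IgG library of date 4 thus lay below 3 of the control libraries, while those of dates 1, 2 and 3 lay above all controls. The mean was 71.5 ± 22.1 CPM in controls and 127 ± 60.6 CPM with IgG (SD, n = 4 each). The fitted log2 fold change was 0.74 ± 0.13 (SE), a 1.67-fold difference that met the study criterion and missed the threshold after adjustment (edgeR adjusted p = 0.0653). The change within pairs ran from 0.33 in pair 4 to 1.00 in pairs 1 and 3 on the log2 scale. With pairs 2 and 4 only, the fitted value was 0.47 and no longer met the criterion.

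Ifih1 (ENSMUSG00000026896, chromosome 2, 62595798 to 62646255), which encodes the sensor of long double-stranded RNA, moved much as Ddx58 did. Its control libraries had 75.8, 52.3, 62.7 and 34.1 CPM and its IgG libraries 130, 73.0, 117 and 43.3 CPM. Dates 1 and 3 gave the highest IgG values and date 4 the lowest. The fitted log2 fold change was 0.63 ± 0.11 (edgeR adjusted p = 0.0735), and 0.41 with pairs 2 and 4 only, when the study criterion was no longer met. Of the 10 genes, Ddx58 and Ifih1 were the pair with the most similar profile over the 8 libraries, with a root mean square difference of 0.078 on the log2 scale after each gene was centred on its mean.

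Dhx58 (ENSMUSG00000017830, chromosome 11, 100694884 to 100704271), the regulator of the other two sensors, had a narrower spread of its change over pairs as scaled, but not after removal of length and GC trends (SD 0.10 and 0.18 on the log2 scale). It had 78.5, 56.8, 70.6 and 38.2 CPM in controls and 113, 81.6, 117 and 58.0 CPM with IgG, so that all IgG libraries except that of date 4 lay above every control. Its log2 change was 0.52, 0.52, 0.73 and 0.60 in pairs 1 to 4, and the fitted value was 0.60 ± 0.09 (1.51-fold, edgeR adjusted p = 0.0381). The call was lost without pair 1 (adjusted p = 0.17), without pair 2 (adjusted p = 0.258) and without pair 3 (adjusted p = 0.249), and with total-count scaling, and over the 14 alternatives the adjusted p ran from 2.99e-05 to 0.692. An antisense gene, Dhx58os, overlaps 4.3% of the exon bases of Dhx58, and reads from that stretch cannot be assigned to either gene if strand was not used in counting.

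Zbp1 showed the largest fitted change of the 10 genes. Zbp1 (ENSMUSG00000027514, chromosome 2, 173206612 to 173218923) had 52.3, 29.9, 44.4 and 16.0 CPM in controls and 112, 54.3, 90.7 and 34.1 CPM with IgG. Each IgG library held 1.82 to 2.15 times the level of its own control, although the IgG library of date 4 lay below the control libraries of dates 1 and 3. The log2 change was 1.10, 0.86, 1.03 and 1.09 in pairs 1 to 4, and the fitted value was 1.02 ± 0.09, a 2.03-fold difference (edgeR adjusted p = 0.009). By p-value Zbp1 ranked 6 among all genes tested. Its adjusted p was 0.117 without pair 2 and 0.692 without the replicate block, and under 0.05 in 12 of 14 alternative settings, over which the edgeR, DESeq2 and limma values ran from 3.22e-15 to 0.692. The log2 fold change without the block was almost equal at 1.03, with an SE of 0.41 in place of 0.09.

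The 2 adaptor genes had the smallest fitted changes and the steadiest levels over the control libraries. With IgG, Tmem173 and Trex1 had the same SD of log2 CPM (0.21). Mavs (ENSMUSG00000037523, chromosome 2, 131234063 to 131248025), the mitochondrial adaptor of the RNA sensors, had 37.1, 34.6, 35.8 and 34.3 CPM in controls and 47.3, 39.0, 39.5 and 37.1 CPM with IgG. IgG library 1 stood highest, and IgG library 4 lay level with the highest control. The fitted log2 fold change of 0.19 ± 0.09 did not pass either threshold (edgeR adjusted p = 0.51). With total-count scaling it was 0.09.

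Tmem173 (ENSMUSG00000024349, chromosome 18, 35733679 to 35740554), the adaptor of the DNA-sensing branch, had 34.8, 30.6, 33.4 and 28.5 CPM in controls and 45.1, 33.1, 40.3 and 33.6 CPM with IgG. The IgG libraries of dates 1 and 3 lay above all controls and those of dates 2 and 4 among them. Its fitted log2 fold change was 0.25 ± 0.09 (edgeR adjusted p = 0.44), and 0.15 with total-count scaling. Neither adaptor gene passed an adjusted p of 0.05 in any of the 14 alternative settings.

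As scaled, Eif2ak2, which encodes the translation-blocking kinase PKR, and Ddx58 varied most in their response between dates. Eif2ak2 (ENSMUSG00000024079, chromosome 17, 78852564 to 78882573) had 105, 81.6, 92.5 and 63.6 CPM in controls and 172, 104, 161 and 66.8 CPM with IgG. Its log2 change was 0.71 and 0.80 in pairs 1 and 3, 0.35 in pair 2 and 0.07 in pair 4. The SD over pairs was 0.34, against 0.33 for Ddx58. After removal of length and GC trends it was 0.21, against 0.2 for Mavs. The fitted value of Eif2ak2 was 0.48 ± 0.13 (edgeR adjusted p = 0.289). Without pair 4 the log2 fold change was 0.60 (adjusted p = 0.0421), with pairs 2 and 4 only it was 0.21 and did not pass, and over the 14 alternatives the adjusted p ran from 0.0272 to 1.0.

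None of the 3 genes that restrain sensing passed an adjusted p of 0.05, and Trex1 alone of them met the study criterion. Adar (ENSMUSG00000027951, chromosome 3, 89715022 to 89753446) had 135, 112, 123 and 94.0 CPM in controls and 167, 139, 157 and 108 CPM with IgG. The log2 change was 0.31, 0.31, 0.35 and 0.21 in pairs 1 to 4, an SD of 0.06, the most even response of the 10 genes. The fitted value was 0.29 ± 0.08 (edgeR adjusted p = 0.317), and 0.19 with total-count scaling. Adar shares 16.8% of its exon bases with Chrnb2, a nicotinic receptor subunit gene on the other strand, whose counts were 24.6 to 30.4% of those of Adar in each library. Reads over the shared stretch cannot be told apart without strand.

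Trex1 (ENSMUSG00000049734, chromosome 9, 109057933 to 109059734) had 56.3, 41.3, 54.4 and 29.7 CPM in controls and 75.7, 57.3, 65.7 and 54.8 CPM with IgG. As scaled, it was the only one of the 10 genes that changed most at date 4 (0.88 on the log2 scale), where the control was lowest. After removal of length and GC trends, Trex1 changed most in pair 1 (0.75, against 0.64 in pair 4). The fitted value was 0.51 ± 0.12 (1.43-fold, edgeR adjusted p = 0.168). All 1147 exon bases of Trex1 lie within exons of Atrip, a gene of the DNA damage checkpoint on the same strand, and the count of Atrip exceeded that of Trex1 by 222, 189, 202 and 192 in control libraries 1 to 4 and by 217, 215, 214 and 192 in IgG libraries 1 to 4. This excess overlapped between the groups. Atrip had a fitted log2 fold change of 0.46 ± 0.10. How reads over the shared exons were assigned is not given, so what each gene contributed cannot be read from these counts alone.

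Samhd1 (ENSMUSG00000027639, chromosome 2, 157097533 to 157135265) had the highest CPM of the 10 genes, with 323, 247, 287 and 193 CPM in controls and 441, 322, 391 and 202 CPM with IgG. IgG library 4 lay below 3 of the controls and IgG library 2 lay just under control library 1. The log2 change was 0.45, 0.38, 0.44 and 0.07 in pairs 1 to 4, and the fitted value was 0.34 ± 0.10 (edgeR adjusted p = 0.343). With pairs 2 and 4 only, the fitted value was 0.22. The criterion call of Trex1 was lost without pair 2, without pair 4 (log2 fold change 0.37), with total-count scaling (0.41), with a minimum of 10 counts in every library (0.48) and without the block. Adar and Samhd1 passed an adjusted p of 0.05 in none of the 14 alternative settings and Trex1 in 5.

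**Figure D2:**
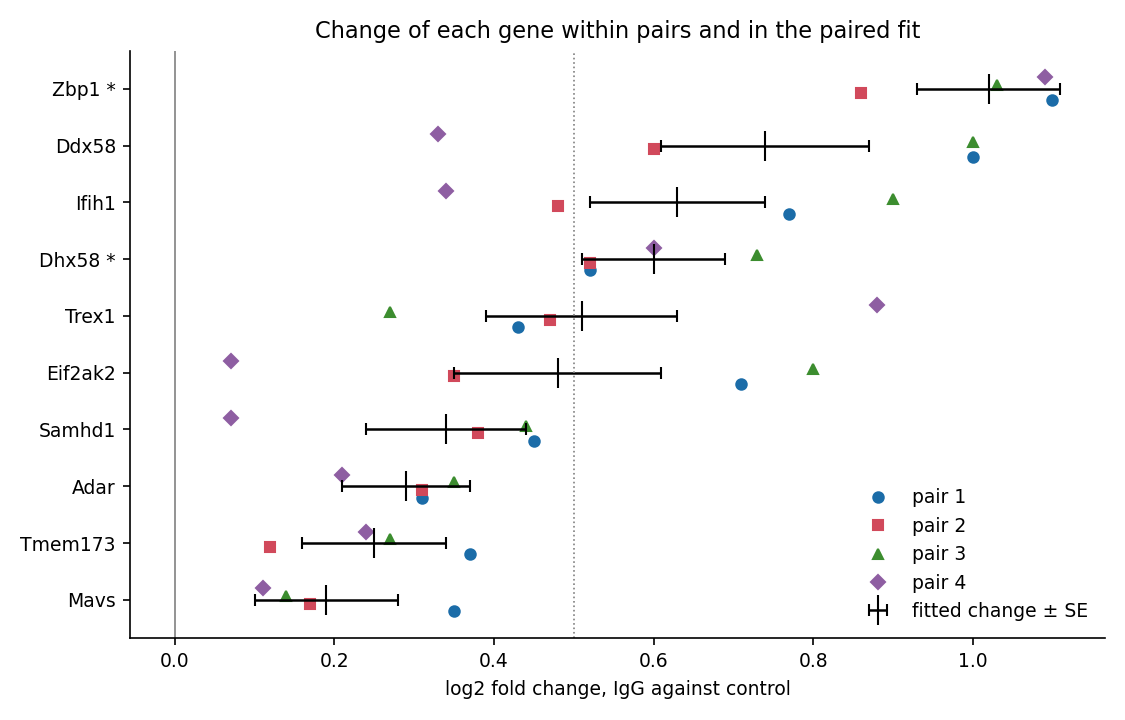
Log2 fold change of each gene with IgG, with a coloured symbol for each pair of libraries, a black tick for the fitted change and a bar for its SE. The dotted line marks the study's limit of 0.5 and an asterisk an adjusted p under 0.05; all symbols lie above 0, from 0.07 for Eif2ak2 and Samhd1 in pair 4 to 1.10 for Zbp1 in pair 1.

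The level of these genes also differed between the dated control libraries. Over the 4 control libraries the SD of log2 CPM was 0.76 for Zbp1, 0.49 for Ddx58 and for Ifih1, 0.46 for Dhx58 and 0.43 for Trex1, against a median of 0.09 over the 11928 genes with a mean of at least 5 CPM. Zbp1 thus stood at percentile 99.6 of those genes, with a 3.26-fold range between control libraries 1 and 4. Samhd1 (0.32), Eif2ak2 (0.31) and Adar (0.22) followed, while Tmem173 (0.13) stood at percentile 68.7 and Mavs (0.05) at percentile 19.2. All 10 genes had the same order of control libraries, date 1 above date 3 above date 2 above date 4, an order held by 10.1% of all 11928 genes. With IgG 8 of the 10 kept this order, Dhx58 and Tmem173 being the exceptions, against 20.3% of all genes.

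The genes that differed most between the control cultures were also those with the larger fitted changes. Over the 10 genes the control SD and the fitted log2 fold change had a Spearman rho of 0.98 and a Pearson r of 0.97. This is a description, since both values use the same control libraries and the genes share all libraries. Over all 11928 genes the Spearman rho was -0.04. The 597 genes with the widest control spread, an SD of at least 0.32, changed by a median of 0.08 on the log2 scale, and 57.6% of them were higher with IgG. The summed level of 5 border-associated macrophage markers followed the dates too, at 460, 348, 416 and 288 CPM in control libraries 1 to 4 and 830, 486, 747 and 321 CPM in IgG libraries 1 to 4. Siglec1 made up most of this sum, at 382, 272, 335 and 231 CPM in controls and 725, 406, 641 and 270 CPM with IgG. Mrc1 was highest at date 3 in controls (75.0 CPM). In pair 4, unlike the other pairs, Mrc1 fell with IgG, from 50.6 to 42.7 CPM. Mean levels in controls and with IgG were 305 and 511 CPM for Siglec1, 67.1 and 79.0 CPM for Mrc1 and 5.61 and 6.4 CPM for Pf4, while Lyve1 and Cd163 were at or under 0.225 CPM in all libraries. The oligodendrocyte-lineage markers ran the other way, at 1010, 1570, 1040 and 1390 CPM in control libraries 1 to 4 and 847, 1480, 855 and 1350 CPM in IgG libraries 1 to 4, lowest at dates 1 and 3. The part of such cells in the differences between dates was not tested.

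**Figure D3:**
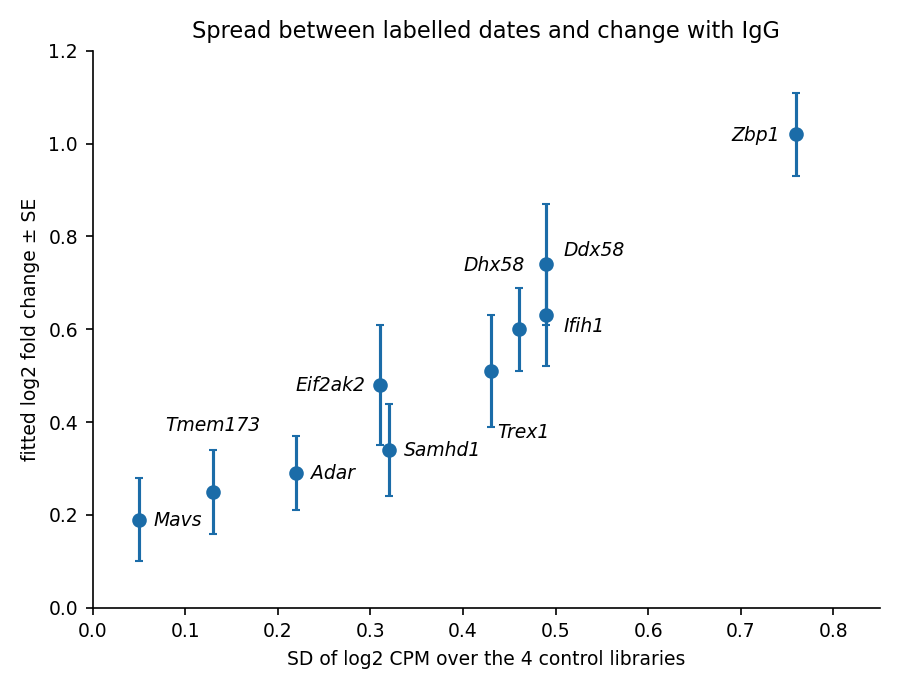
SD of log2 CPM over the 4 control libraries (horizontal axis) and fitted log2 fold change with IgG ± SE (vertical axis) for each of the 10 genes. The points run from Mavs (0.05, 0.19) to Zbp1 (0.76, 1.02).

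The spread of the response between pairs changed when gene length and base composition were taken into account. GC content, taken from the longest transcript of each gene, ran from 42.8% in Ifih1 to 57.8% in Trex1. When trends on exon length and GC content were removed from each library, the SD of the log2 change over pairs became smaller in 6 of the 10 genes, from 0.26 to 0.08 in Ifih1, from 0.18 to 0.05 in Samhd1, from 0.33 to 0.16 in Ddx58, from 0.34 to 0.21 in Eif2ak2, from 0.26 to 0.12 in Trex1 and from 0.06 to 0.02 in Adar. It became larger in the other 4, from 0.10 to 0.18 in Dhx58, from 0.11 to 0.20 in Mavs, from 0.11 to 0.19 in Tmem173 and from 0.11 to 0.13 in Zbp1. Samhd1 then changed by 0.30, 0.38, 0.31 and 0.27 in pairs 1 to 4 in place of 0.45, 0.38, 0.44 and 0.07. Mavs turned to -0.02 in pair 4, so that 9 of the 10 genes were higher in all 4 pairs, against 12.7% of all genes. In the paired fit on these values 1.15% of all genes were called higher, more than in the fit without the correction, and 5 of the 10 genes passed (edgeR adjusted p = 0.000913 for Zbp1, 0.00418 for Ddx58, 0.00549 for Trex1, 0.00587 for Ifih1 and 0.00855 for Dhx58). Over the 14 alternatives the adjusted p of Ddx58, Ifih1 and Trex1 ran from 9.57e-05, 0.000402 and 0.000468 to 0.692 in each.

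**Figure D4:**
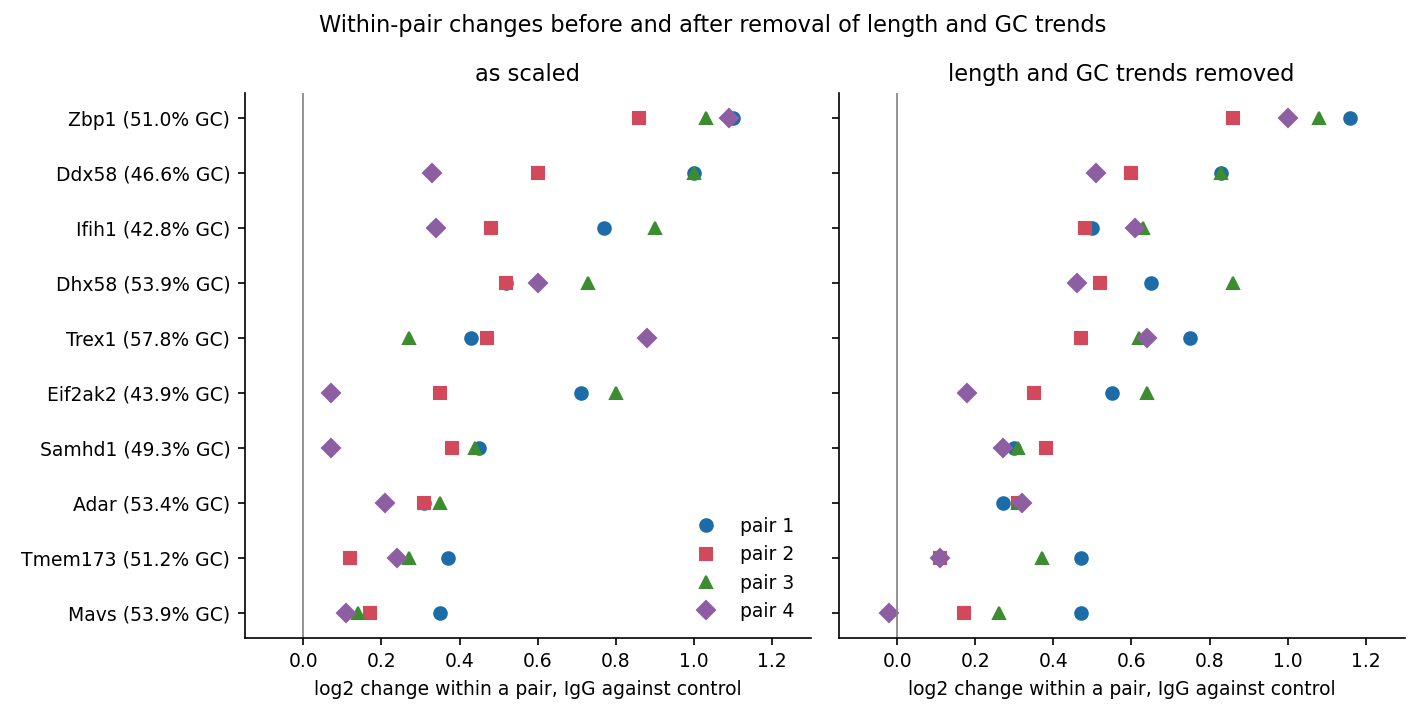
Log2 change within each pair, as scaled (left) and after removal of trends on exon length and GC content (right). A symbol marks each labelled date, and the GC content of the longest transcript of each gene is given beside its name. The symbols of Samhd1, Ifih1 and Adar draw together on the right, and those of Mavs and Tmem173 spread.

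To compare levels between genes, CPM was divided by exon length in kilobases (RPKM). In controls Trex1 was highest at 39.6 ± 10.8 RPKM (SD, n = 4), with the limit that its exons are shared with Atrip. Samhd1 (28.7 ± 6.1), Dhx58 (18.7 ± 5.4), Eif2ak2 (16.8 ± 3.45), Adar (14.3 ± 2.17), Tmem173 (11.6 ± 1.02), Mavs (10.6 ± 0.377), Ddx58 (10.1 ± 3.13), Zbp1 (10.1 ± 4.55) and Ifih1 (6.89 ± 2.16) followed in RPKM. The ranges of neighbours in this order overlapped in every case. With IgG the first 4 genes kept their places, Zbp1 came next at 20.7 ± 10.0 RPKM and Ddx58 after it at 18.0 ± 8.6 RPKM, and Ifih1 stayed lowest at 11.1 ± 4.88 RPKM. Neighbouring ranges overlapped there as well.

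Among genes with a mean of at least 5 CPM, those with the profile most like each member over the 8 libraries were found by the root mean square difference of centred log2 CPM. For Zbp1 they were Irf7 (0.094), Ifit3 (0.105) and Oas3 (0.138). For Ddx58 they were Parp14 (0.081), Gbp2 (0.106) and Phf11b (0.108), and for Ifih1 they were Parp14 (0.055), Irgm2 (0.071) and Slfn8 (0.081). Igtp (0.082) was among the genes nearest to Dhx58. Eif2ak2 was nearest to Trim30a (0.048) and Znfx1 (0.069), and Samhd1 to Znfx1 (0.079), Helz2 (0.081) and Parp9 (0.081). Irf7, Ifit3 and Oas3 are known as interferon-induced genes. Mavs was nearest to Drosha (0.029), Tmem173 to Rnpep (0.04) and Adar to Ptger4 (0.043). Trex1 was nearest to Atrip (0.051), the gene that shares its exons.

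Few other genes of the same pathways passed a threshold. Of 59 listed partners 57 were tested, and 1 of them, Irf7, passed an adjusted p of 0.05, while 4 met the study criterion upward (Irf7, Ddx60, Mlkl and Dnase1l3) and 0 downward. The backgrounds are those given above, 0.393% and 1.48%. The median log2 fold change of the partners was 0.09, and -0.01 with total-count scaling. Higher levels in all 4 pairs were found in 15 of the 57, against 10.4% of all genes. Lower levels in all 4 pairs were found in 2 partners, and in 1486 of all 17537 genes tested. With total-count scaling Trim25, Nlrx1, Ddx41, Aim2, Traf2 and Eif2s1 were no longer higher in all 4 pairs, and 5.62% of all genes were. The count of 4 was 2 without pair 3 (1.1% of all genes) and 1 (Irf7) with pairs 2 and 4 only (1.17%).

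Irf7, the transcription factor that amplifies interferon production, had 179, 103, 153 and 55.5 CPM in controls and 372, 213, 332 and 137 CPM with IgG. Its fitted log2 fold change was 1.13 ± 0.09 (edgeR adjusted p = 0.00593). Its control libraries had the same order of dates as the 10 genes. Without pair 2, when no gene passed, Irf7 did not pass either. Ddx60, a helicase gene linked to the RNA sensors, had 23.5 ± 7.95 CPM in controls and 35.3 ± 15.2 CPM with IgG. It met the study criterion (log2 fold change 0.55 ± 0.11, edgeR adjusted p = 0.108). This criterion call was lost with total-count scaling and with the length and GC correction (log2 fold change 0.44 in each). It was also lost without pair 3, with pairs 2 and 4 only and without the block. Mlkl, the pore-forming executor of necroptosis downstream of ZBP1, went from 4.68 ± 1.6 to 9.45 ± 5.38 CPM (0.92 ± 0.19, adjusted p = 0.127). The kinase gene Ripk3, which links ZBP1 to MLKL and is named here after its values were seen, was lower in all 4 pairs (6.63 to 5.13 CPM, log2 fold change -0.36 ± 0.14, edgeR adjusted p = 0.464). Dnase1l3, a secreted nuclease gene at 1.28 ± 0.368 and 3.24 ± 1.89 CPM, changed by 1.66, 0.03, 1.67 and 1.15 on the log2 scale in pairs 1 to 4. Its fitted value was 1.23 ± 0.31 (edgeR adjusted p = 0.236), on 17 to 36 counts in the control libraries. Dnase1l3 no longer met the study criterion without pair 1, without pair 3, with pairs 2 and 4 only and without the block. Mlkl no longer met it with pairs 2 and 4 only and without the block.

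The partner with the highest mean CPM over all libraries in each role group did not pass either threshold. Ddx3x, an RNA helicase gene, had 336 and 363 mean CPM in controls and with IgG (log2 fold change 0.09 ± 0.13). In the DNA-sensing group Surf4, a cargo receptor that holds STING in its resting cycle, had 178 and 217 CPM (0.28 ± 0.09). Of the shared kinases and factors, Irf5 had 200 and 197 CPM (-0.02 ± 0.09) and led by its mean over all 8 libraries, although Irf7 was higher with IgG. Ripk1 (0.15 ± 0.12), the PKR inhibitor gene Dnajc3 (0.23 ± 0.12), the editing enzyme gene Adarb1 (-0.26 ± 0.14) and the lysosomal exonuclease gene Pld3 (-0.07 ± 0.10) led the remaining groups. Cgas, the DNA sensor upstream of STING, is given outside the naming rule and had 17.4 and 19.6 CPM (0.13 ± 0.15).

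**Figure D5:**
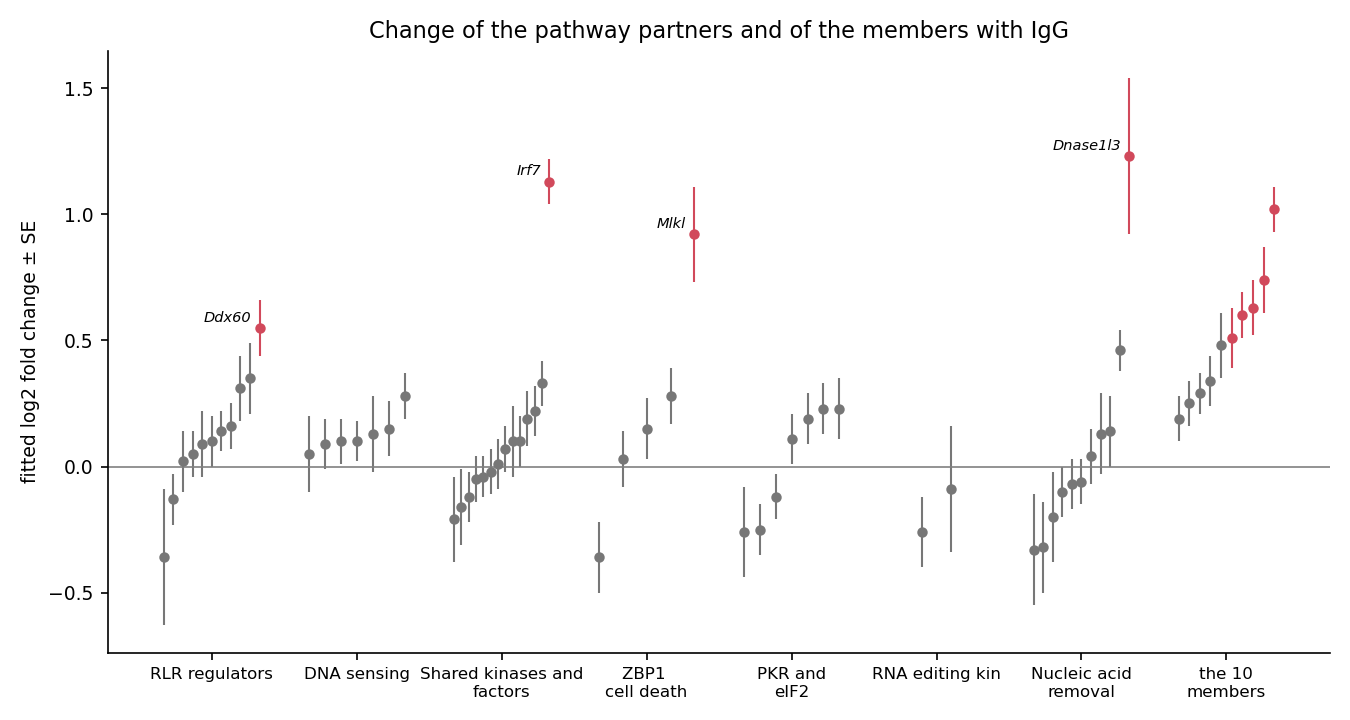
Fitted log2 fold change ± SE of the 57 tested pathway partners, sorted within role groups, and of the 10 genes at the right; red points met the study criterion. The red partners are Ddx60 (0.55), Irf7 (1.13), Mlkl (0.92) and Dnase1l3 (1.23), grey partner points lie on both sides of 0, and the points of the 10 genes all lie above 0.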

How the data were processed

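Poly(A) RNA was sequenced from 4 control and 4 IgG cultures. The authors deposited a table of raw read counts per Ensembl gene. The submitters' processing notes name HISAT2 2.2.1, SAMtools 1.12, Picard 2.26.3, featureCounts and edgeR 3.36.0 with GRCm38. The annotation release and the settings for strand and for reads over overlapping genes are not given in the sources used here. Symbols, exon lengths and GC content came from GENCODE M21, in which 55144 of 55385 identifiers were found.

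Counts were filtered (filterByExpr), scaled by TMM and fitted with edgeR 4.0.16 in R 4.3.3 (quasi-likelihood test, replicate number as a block plus group). P-values were Benjamini-Hochberg adjusted over 17537 genes. The SE of a fitted change was derived from the test, as the absolute log2 fold change divided by the square root of the F statistic. Levels are TMM-scaled CPM, changes within pairs are differences of log2 CPM with a prior count of 2, and length and GC trends were removed by lowess with a span of 0.3. Per the labels, same-numbered cultures of both groups share a date. Deviations from the group means correlated at 0.47, 0.43, 0.28 and 0.33 for same-numbered libraries and at -0.38 to 0.28 for the others (11928 genes). Replicates of a group differed by more than counting noise, with a chi-square per degree of freedom of 5 to 17.6 between control libraries. Between IgG libraries it was 6.59 for libraries 1 and 3 and 26.9 for libraries 2 and 4. Any other combination of IgG libraries gave 65.3 to 121. In simulated data for this comparison (17295 genes), genes of at least 5 CPM were changed by a log2 fold change of 1 or 2. The paired fit recovered 99 of 100 genes changed by 1 and 100 of 100 changed by 2, with 12 false calls. The fit without the block recovered 43 and 100, with 0 false calls. Smaller changes were not simulated, while the fitted changes of the 10 genes ran from 0.19 to 1.02. The simulation therefore does not show how often changes below 1 would be missed.

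The members and the list of partners were chosen with earlier results of these data known. Named were all 10 members, genes among the 3 most like each (not all are reported here), the partners past a threshold and the most abundant partner of each role group. Promoter stretches were to be shown for up to 4 members meeting the study criterion and 2 that did not. Those with an ISRE match are printed, and Eif2ak2 was added after its match was seen. Alternatives were the fit without the block, RLE and total-count scaling, 2 other filters, the likelihood ratio test, DESeq2 1.42.0, limma-voom (limma 3.58.1), the length and GC correction, leaving out each pair, and pairs 2 and 4 only.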

Additional observations from a re-analysis of the deposited data

How the results depend on the processing

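The log2 fold changes of the 10 genes stayed positive in all 14 alternatives. Of 140 such values 116 kept their side of an adjusted p of 0.05, 17 passed it only under the alternative, 7 lost it and 0 reversed. Without the replicate block, 0 of the 10 genes and 0 of the partners passed an adjusted p of 0.05, and 0 of each met the study criterion. Over all genes that fit called 0, with 1230 at an unadjusted p under 0.05 and 148 (102 higher) meeting the study criterion, against 69 called in the paired fit, so the calls rest on the pairing by date. The count of the 10 genes with an adjusted p under 0.05, 2 in the paired fit, was 1 with total counts, 6 with no filter, and 5 with the likelihood ratio test, DESeq2 or the length and GC correction. It was 0 to 5 when a pair was left out and 3 with pairs 2 and 4 only. For the partners (1 in the paired fit) it was 5 with no filter or the likelihood ratio test, 4 with DESeq2, 3 with the length and GC correction and 0 to 2 when a pair was left out. The study criterion was met by 3 of the 10 genes with total counts or with pairs 2 and 4 only, and by 4 to 5 when a pair was left out. For the partners it was met by 1 with pairs 2 and 4 only and by 2 to 5 when a pair was left out. The median log2 fold change of the 10 genes was 0.34 with pairs 2 and 4 only. Over all genes the calls at an adjusted p under 0.05 numbered 37 with total counts, 376 with no filter, 327 with the likelihood ratio test, 231 with DESeq2, 213 with the length and GC correction, 190 with pairs 2 and 4 only, and 0 to 182 when a pair was left out. The study criterion was met upward by 260 of all genes in the paired fit, 172 with total counts, 207 with pairs 2 and 4 only and 190 to 427 when a pair was left out. The causes of these differences were not tested. RLE scaling, a minimum of 10 counts in every library and limma-voom kept all counts within 1.5 times. The 10 genes lay above the 3-count floor in every library.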

Other observations

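In the paired fit, a further partner stood near the adjusted threshold without reaching the study's fold limit. It is given here after its values were seen. Pld4, a lysosomal exonuclease gene that limits nucleic acid sensing in endosomes, had a mean of 239 CPM in controls and 333 CPM with IgG, a fitted log2 fold change of 0.46 ± 0.08 (edgeR adjusted p = 0.0759).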
